A study of Mus musculus with 11 samples.

Results

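LincRNA promoters were taken as the transcription start sites (TSSs) of genes typed as lincRNA, long intergenic noncoding RNAs, on chromosomes 1 to 19 of the GENCODE annotation of mm9, where no protein-coding TSS lay within 5 kb. Of 37273 annotated TSSs, 548 met this rule. The annotation holds 1273 lincRNA genes, 1232 of them on these chromosomes, and 684 of those had a protein-coding TSS within 5 kb and were set aside. A further 11 TSSs lay in the 264 of 26427 tiles of 100 kb with the most anti-HA signal in cells without doxycycline (Dox), and the remaining 537 were compared with 20767 protein-coding TSSs outside these tiles. The 5 kb rule was not applied to the latter, of which 16829 had no other protein-coding TSS within 5 kb and are called isolated. Of the 548, 338 lay outside every protein-coding gene body and 210 inside one, 200 of these on the strand opposite to the protein-coding gene.

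Mouse cells gave 11 ChIP-Seq libraries, 1 for each condition. The cells used with anti-HA come from KH2 ES cells (129 X C57bl/6) with the reverse transactivator M2rtTA at the ROSA26 locus and an HA-tagged histone gene under a tetracycline operator downstream of Col1a1, so that the control without Dox carries the cassette too. HA-H3.3 was mapped with anti-HA in ES cells after 3 and 6 h of Dox at 2 µg/ml, and HA-MacroH2A2 (HA-Macro) in ES cells without Dox and after 3, 6 and 12 h, and in mouse embryonic fibroblasts (MEFs) after 3, 6 and 12 h. Total MacroH2A2 was mapped with its own antibody in ES cells and MEFs, each library joining 2 replicates according to its label, which calls the ES cells parental KH2 and the MEFs wild type. The sources used here give different Dox states for these 2 libraries, so that only antibody and cell type are used. The name of the deposited data of the HA-Macro library without Dox says Dox, and its labels, which say untreated, were followed. The HA-Macro MEFs were grown from chimeric embryos, selected with puromycin against host cells and used at passage 2.

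LincRNA genes are transcribed by RNA polymerase II from promoters of their own, mostly give low levels of spliced RNA, and have CpG-poor promoters more often than protein-coding genes do. H3.3 is a histone H3 variant that is placed on DNA outside replication and is known to mark active promoters and enhancers. MacroH2A2 is a histone H2A variant with a large C-terminal macro domain, known from repressed chromatin such as the inactive X chromosome. In this system a tagged histone is newly made after Dox is added, so that a site where the variant is replaced outside replication takes up the tag early and then loses signal relative to the rest of the genome.

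The measure used throughout is the number of interval midpoints, the centres of the mapped and extended reads, within 600 bp of a TSS. Enrichment is log2 of the midpoint density in this window over the density from 4 to 2 kb upstream of the same TSSs. With 1 library per condition no test between conditions is possible. The 95% intervals given cover counting error only, not the spread between cultures. Where 0 midpoints were counted, counting error allows up to 3 by a 1-sided 95% limit.

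The lincRNA promoters were poorer in CpG than protein-coding promoters. The median ratio of observed to expected CpG in the window was 0.316 against 0.543, the median number of CpGs 22 against 47 and the median GC content 49.2% against 54.1%. The median distance to the nearest protein-coding TSS was 32.3 kb, with 196 members at 5 to 20 kb, 276 at 20 to 100 kb and 76 farther away. The genes had a median length of 8.65 kb, 247 had exactly 2 exons in the transcript with most exons, and most are known only by a systematic name, 336 beginning with Gm and 173 ending in Rik. Another lincRNA TSS lay within 5 kb of 18 members, which may share midpoints. At the distance threshold, 4933439K11Rik (5.13 kb from Vsig8) held 22 midpoints for HA-H3.3 at 6 h, and 13 and 8 for HA-Macro in ES cells at 3 and 12 h. Just outside it, Gm17591 (4.98 kb from Zfp36l1) held 13, 16 and 6.

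The 5 promoters shown here, from 250 bases before to 50 after the TSS, are among the members that stood highest over their own upstream density. The first pair did so with HA-H3.3 at 6 h, the next pair with anti-MacroH2A2 in ES cells, and Gm10151 with anti-MacroH2A2 in MEFs. CpG dinucleotides are in capitals, and each sequence is read 5′ to 3′ on the strand of the gene in mm9.
1810014B01Rik (chr10:86148096-86148395, plus strand): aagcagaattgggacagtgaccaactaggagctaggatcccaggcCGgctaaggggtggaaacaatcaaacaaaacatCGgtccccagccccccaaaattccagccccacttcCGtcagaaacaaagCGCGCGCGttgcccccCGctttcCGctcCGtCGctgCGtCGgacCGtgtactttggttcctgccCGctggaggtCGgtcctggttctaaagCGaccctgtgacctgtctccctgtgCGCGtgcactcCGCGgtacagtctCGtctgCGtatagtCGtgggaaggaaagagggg
Gm17716 (chr14:26198072-26198371, minus strand): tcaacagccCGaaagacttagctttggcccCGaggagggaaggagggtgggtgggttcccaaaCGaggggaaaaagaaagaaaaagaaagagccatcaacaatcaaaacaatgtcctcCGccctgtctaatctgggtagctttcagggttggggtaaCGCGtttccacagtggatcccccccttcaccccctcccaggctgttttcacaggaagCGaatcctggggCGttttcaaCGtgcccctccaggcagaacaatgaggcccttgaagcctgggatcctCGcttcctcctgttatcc
Gm17643 (chr1:138112401-138112700, plus strand): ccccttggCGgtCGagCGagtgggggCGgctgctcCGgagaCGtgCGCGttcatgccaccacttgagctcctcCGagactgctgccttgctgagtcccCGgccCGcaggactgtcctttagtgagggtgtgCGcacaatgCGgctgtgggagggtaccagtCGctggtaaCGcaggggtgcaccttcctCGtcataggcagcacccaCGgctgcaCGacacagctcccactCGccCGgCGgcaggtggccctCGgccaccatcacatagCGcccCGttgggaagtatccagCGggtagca
Gm16599 (chr5:136750616-136750915, plus strand): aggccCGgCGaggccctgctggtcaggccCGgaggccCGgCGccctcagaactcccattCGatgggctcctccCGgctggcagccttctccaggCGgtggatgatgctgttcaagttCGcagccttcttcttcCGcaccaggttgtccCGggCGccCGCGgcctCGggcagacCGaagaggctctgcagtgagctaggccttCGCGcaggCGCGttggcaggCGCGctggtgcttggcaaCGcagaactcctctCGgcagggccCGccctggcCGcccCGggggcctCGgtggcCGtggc
Gm10151 (chr4:132641139-132641438, plus strand): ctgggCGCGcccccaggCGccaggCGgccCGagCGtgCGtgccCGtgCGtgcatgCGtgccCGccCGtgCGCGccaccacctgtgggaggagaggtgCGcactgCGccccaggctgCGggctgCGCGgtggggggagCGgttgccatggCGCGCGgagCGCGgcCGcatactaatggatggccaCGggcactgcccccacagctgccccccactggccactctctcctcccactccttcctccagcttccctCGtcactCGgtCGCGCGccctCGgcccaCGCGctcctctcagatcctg

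These stretches held 24, 10, 25, 29 and 35 CpGs in the order printed, where the median over all 548 members was 6 and over protein-coding promoters 12 per 300 bases. Gm16599 starts inside Cux1 and Gm17643 inside 5730559C18Rik, and the other promoters printed lie outside protein-coding gene bodies. The GC box core GGGCGG, searched on both strands of the same 300 bases, was present in 26.1% of lincRNA promoters, 43.7% of protein-coding promoters and 31.5% of the promoters of all genes on these chromosomes. TATAAA, the core of the TATA box, was present in 12.6%, 13.5% and 15.8%, the E-box CACGTG in 8.39%, 7.78% and 6.28%, and the cAMP response element TGACGTCA in 2.01%, 2.31% and 1.64%.

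The libraries held 6488112 to 20541627 intervals. Interval length was 400 bp for HA-H3.3 and for anti-MacroH2A2 and 150 bp for the 7 anti-HA HA-Macro libraries, so that heights and shapes are compared between TSS classes within a library first. The HA-Macro ES library at 3 h stood apart in its share of distinct intervals on the Y chromosome, 0.112% against 0.0198% to 0.0244% in the other HA-Macro libraries. Among the other 4 libraries this share was 0.0423% to 0.102%. The part of the 3 h library in the results at 3 h was not tested, and pooled lincRNA changes from 3 to 12 h in ES cells are followed by those from 6 h. The labelled cell types were checked on 10 ES cell and 10 fibroblast marker genes. HA-H3.3 at 6 h had a median of 3.03 midpoints per 1000000 intervals (ppm) at ES cell marker promoters and 0.653 at fibroblast marker promoters, although its enrichment over upstream ran the other way, 0.48 and 1.17. Anti-MacroH2A2 enrichment in MEFs was 1.20 over the former and −0.32 over the latter. In ES cells it was 1.22 and 0.87, so that with this antibody only the fibroblast markers set the cell types apart.

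HA-H3.3 was enriched at lincRNA promoters in ES cells. The 537 TSSs together held 4201 midpoints at 3 h and 11621 at 6 h, and enrichment was 0.80 (0.74 to 0.87) and 1.19 (1.15 to 1.24), a 1.74-fold and a 2.29-fold excess over upstream. Protein-coding promoters stood at 1.27 and 1.57. The difference, lincRNA minus protein-coding, was −0.47 (−0.53 to −0.40) at 3 h and −0.38 (−0.42 to −0.34) at 6 h. Between 3 and 6 h enrichment rose by 0.39 (0.32 to 0.47) at lincRNA and 0.30 (0.29 to 0.32) at protein-coding promoters. The density upstream of lincRNA TSSs was itself higher, 0.735 ppm per kb at 6 h against 0.627 upstream of protein-coding TSSs, while the densities in the window were 1.68 and 1.86.

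Single lincRNA promoters ranged widely. With HA-H3.3 at 6 h the quartiles were 7, 15 and 31 midpoints, 14 promoters held none, and Gm16885 held the most, 149, which is 13.9 ppm. It was followed by 4933439C10Rik with 118 and Gm16880 with 107. Among the 380 members with at least 20 midpoints in window and upstream stretch together, 221 were at least 2-fold above their upstream density, 58.2%, where 66.3% of all TSSs tested passed the same line. At 3 h 71 of 136 did, against 65.7% of all. The members highest over their own upstream density at 6 h, described here with no test because they were picked on it, were 1810014B01Rik (20 midpoints in the window, 0 upstream), Gm17716 (69 and 3), BC039771 (50 and 3), 2810429I04Rik (55 and 4) and Gm16599 (40 and 3). From 3 to 6 h, 100 of 295 members at least doubled relative to library size, against 22.9% of all TSSs, and 1 fell at least 2-fold, against 0.562%.

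**Figure D1:**
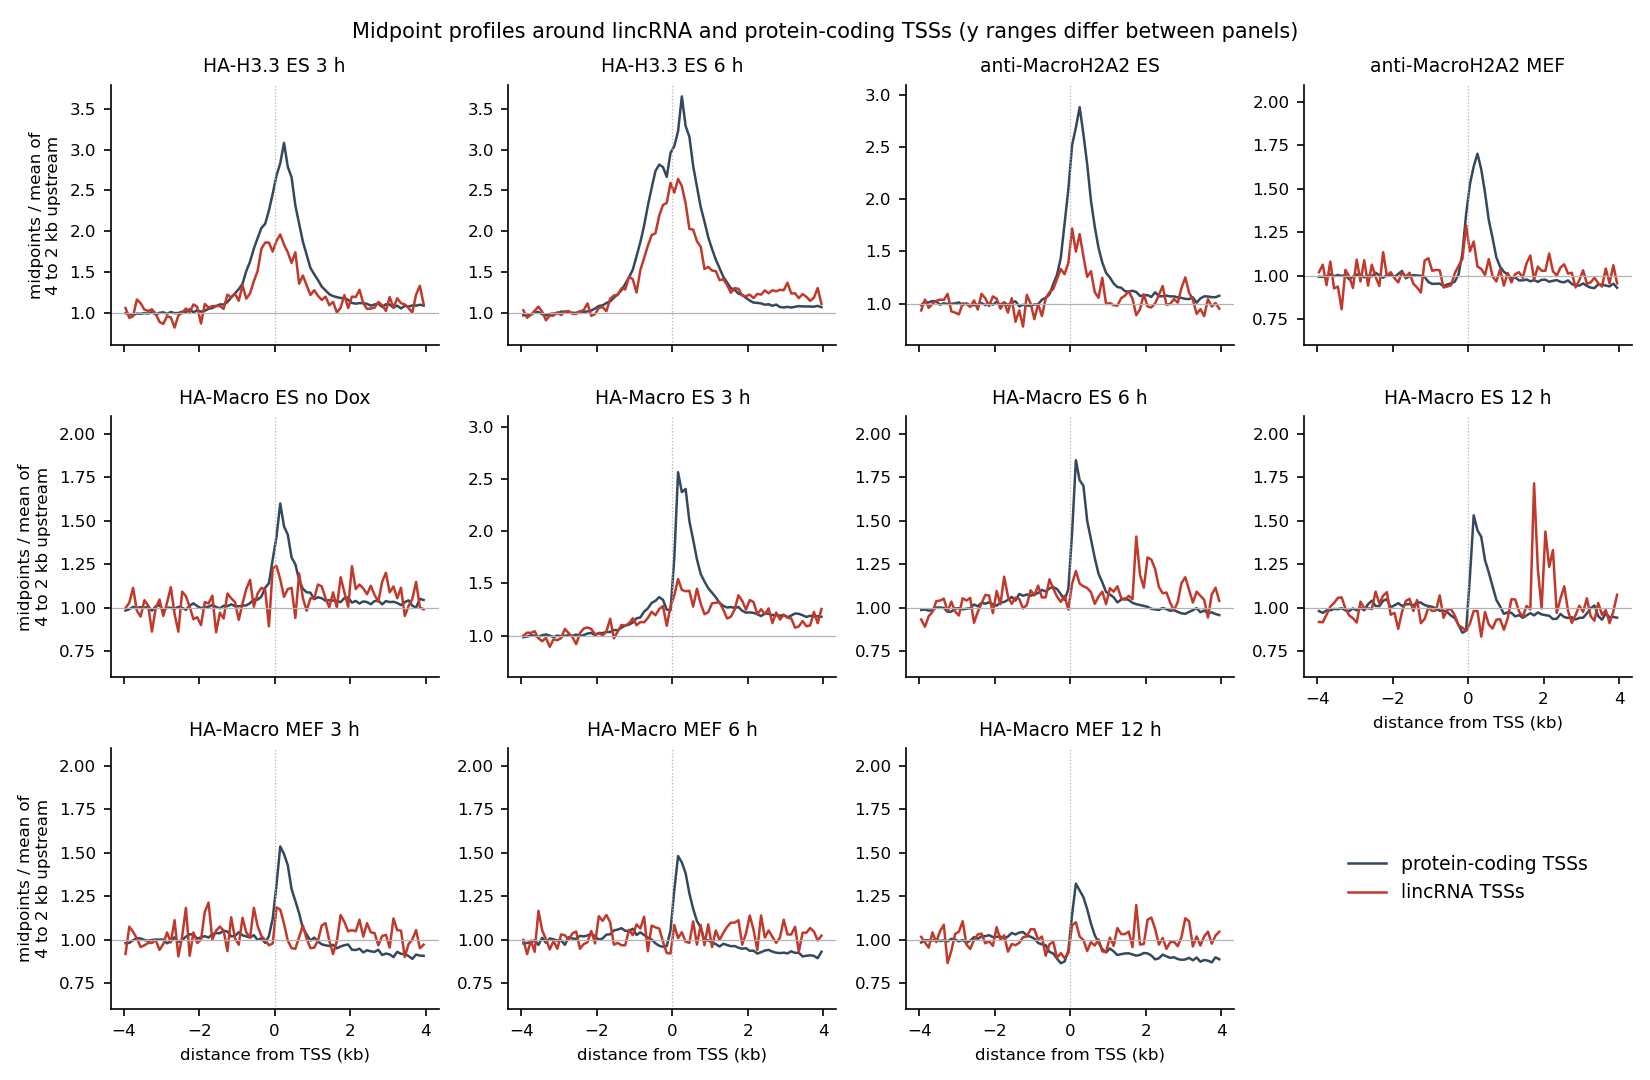
Midpoint density per 100 bp bin across 4 kb on each side of the TSS, relative to the average of the stretch 4 to 2 kb before it, for 537 lincRNA and 20767 protein-coding TSSs in each of the 11 libraries. HA-H3.3 at 6 h rose to 2.64 at lincRNA TSSs and 3.65 at protein-coding TSSs, and the narrow peak near 1750 bp downstream of lincRNA TSSs in the HA-Macro ES libraries comes from the single gene Gm17447.

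The profile of HA-H3.3 at 6 h was highest in the bin centred 150 bp downstream of lincRNA TSSs, at 2.64 (2.48 to 2.81) times the upstream mean, and 250 bp downstream of protein-coding TSSs, at 3.65 (3.62 to 3.69). The 600 bp on either side of lincRNA TSSs were nearly even, with log2 of downstream over upstream 0.07 (0.02 to 0.12), where protein-coding TSSs gave 0.22 (0.21 to 0.22). The density stayed 1.23 times the upstream mean from 2 to 4 kb downstream.

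Total MacroH2A2 was enriched at lincRNA promoters in ES cells and little in MEFs. Enrichment was 0.45 (0.39 to 0.51) in ES cells, from 3932 midpoints, and 0.10 (0.05 to 0.15) in MEFs, from 4834. Protein-coding promoters stood at 0.99 and 0.38, so that the difference was −0.54 (−0.60 to −0.48) in ES cells and −0.28 (−0.33 to −0.23) in MEFs. Not divided by upstream, lincRNA promoters held 0.714 ppm per kb against 0.937 in ES cells and 0.503 against 0.555 in MEFs. The change of enrichment from ES cells to MEFs was −0.35 (−0.43 to −0.27) at lincRNA and −0.61 (−0.62 to −0.60) at protein-coding promoters, 0.26 (0.18 to 0.34) smaller in size at the former. The ES profile peaked at 1.72 (1.55 to 1.90) in the bin 50 bp downstream, and the downstream excess seen at protein-coding TSSs, 0.76 (0.75 to 0.78), was 0.25 (0.16 to 0.34) at lincRNA TSSs.

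At least 2-fold enrichment of anti-MacroH2A2 over upstream was found at 61 of 138 members tested in ES cells, against 55.2% of all TSSs, and at 44 of 300 in MEFs, against 20.7%. Highest in ES cells were Gm17643 (29 midpoints in the window, 2 upstream), Gm16599 (37 and 4), A530083I20Rik (18 and 2), Gm10151 (29 and 4) and B230344G16Rik (26 and 5), the last within Itgb4, which encodes a laminin-binding integrin subunit. In MEFs they were Wbscr25 (36 and 4), Gm10151 (31 and 5), 1700015O11Rik (19 and 3), Gm16599 (42 and 9) and 9530036O11Rik (37 and 11), whose TSS lies 8.83 kb from that of Shh, a secreted morphogen. Gm16599 and Gm10151, both printed above with 29 and 35 CpGs, stood in both groups of 5. Among 116 members tested in both cell types, 52 were at least 2-fold enriched in ES cells and 28 in MEFs, and the 24 shared made up 46.2% of the former and 85.7% of the latter, against 40.4% and 84.7% at protein-coding TSSs.

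Comparisons between the cell types are relative, to library size or to upstream density. The paper holds that normalization overstates the average promoter loss in MEFs, where more MacroH2A2 signal lies away from promoters. Between the cell types, 48 of 149 members were at least 2-fold lower in MEFs, against 40.4% of all TSSs, and 3 at least 2-fold higher, against 1.65%. The lowest of those with at least 40 midpoints was A030009H04Rik, with 30 midpoints in ES cells and 16 in the deeper MEF library, log2 −1.67 after scaling to library size. Nespas, an antisense RNA of the imprinted Gnas cluster, held 26 and 19 (−1.24), and 6430628N08Rik, B230344G16Rik and Gm17277 completed the lowest 5, although the ratio of B230344G16Rik turned to 0.20 with a 300 bp window. The highest were Gm17182, with 11 and 30 midpoints (0.57), Miat, a nuclear RNA, with 16 and 34, 4632428C04Rik with 17 and 31, Wbscr25 with 20 and 36, and Nkx2-2as, antisense to the homeobox gene Nkx2-2, with 16 and 28. Scaled to library size, Miat gave 1.87 ppm in ES cells and 2.28 in MEFs. 4632428C04Rik, with 1.99 and 2.08 ppm, and Wbscr25, with 2.34 and 2.42, were nearly level. Nkx2-2as was level after scaling, log2 −0.03 (−0.93 to 0.99 without the added midpoint).

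**Figure D2:**
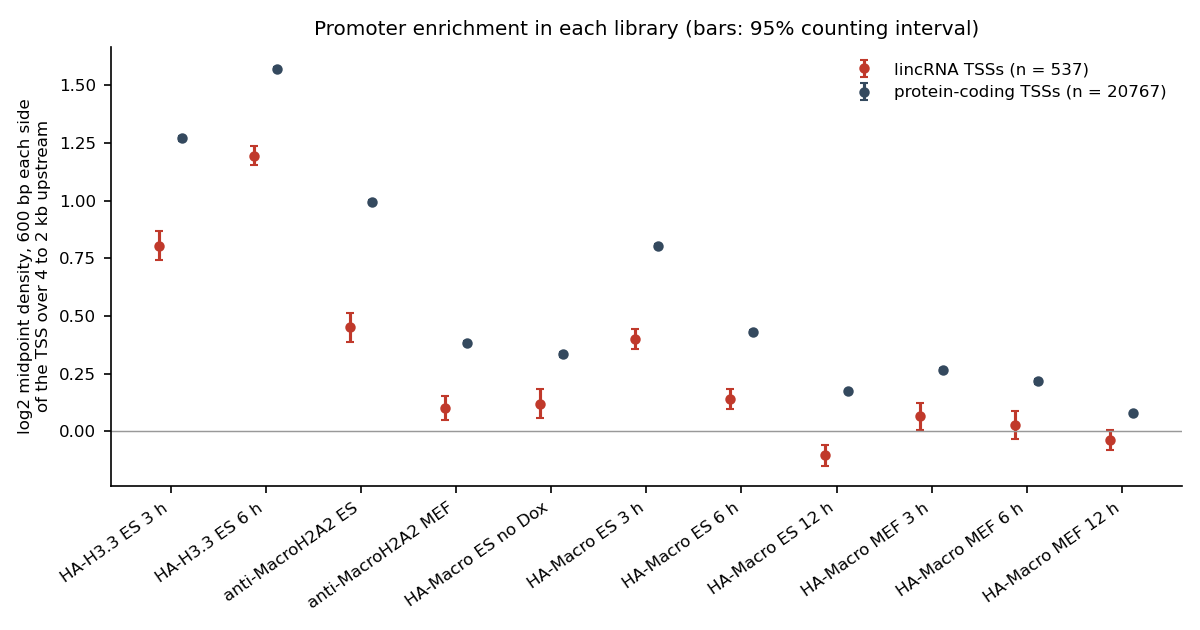
Log2 enrichment within 600 bp of the TSS over 4 to 2 kb upstream in each library for lincRNA and protein-coding TSSs, with 95% counting intervals as bars, which are smaller than the points for protein-coding TSSs. Divided by upstream, lincRNA promoters lay lower in all 11 libraries (undivided, the order turned for HA-Macro in MEFs at 6 and 12 h), at 1.19 against 1.57 for HA-H3.3 at 6 h and at −0.10 against 0.17 for HA-Macro in ES cells at 12 h.

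HA-Macro at lincRNA promoters in ES cells was highest at 3 h and lower at each later time. Enrichment was 0.12 (0.06 to 0.18) without Dox, 0.40 (0.36 to 0.44) at 3 h, 0.14 (0.10 to 0.19) at 6 h and −0.10 (−0.15 to −0.06) at 12 h. The 3 h value was 0.28 (0.20 to 0.35) above the library without Dox and the difference of the 12 h library from it was −0.22 (−0.30 to −0.15). Protein-coding promoters gave 0.33, 0.80, 0.43 and 0.17, and the change from 3 to 12 h was −0.50 (−0.56 to −0.44) at lincRNA and −0.63 (−0.64 to −0.62) at protein-coding promoters, a difference of 0.13 (0.07 to 0.19). With 6 h as the early time point the lincRNA change was −0.24 (−0.31 to −0.18) and the protein-coding change −0.26 (−0.27 to −0.25), and their difference was 0.013 (−0.051 to 0.076), an interval that includes 0. At the isolated protein-coding TSSs the change was −0.70 (−0.71 to −0.68) from 3 h and −0.26 (−0.27 to −0.25) from 6 h.

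The densities themselves showed how this change was made up. In the window, lincRNA promoters held 0.708 ppm per kb at 3 h, 0.607 at 6 h and 0.513 at 12 h, and the stretch upstream held 0.537, 0.551 and 0.551. For the 207 members inside protein-coding gene bodies the upstream density was 0.650 at 3 h and 0.501 at 12 h, so that their enrichment moved from 0.23 to 0.02, a change of −0.22 (−0.31 to −0.12) from 3 h and of −0.13 (−0.23 to −0.027) from 6 h. For the 330 outside, the upstream density was 0.465 and 0.582, and enrichment moved from 0.53 to −0.17, a change of −0.70 (−0.78 to −0.62) from 3 h and of −0.31 (−0.39 to −0.23) from 6 h. Counted by single promoters in the window alone, 42 of 152 inside, 27.6%, and 51 of 230 outside, 22.2%, were at least 2-fold lower at 12 h than at 3 h, against 29.3% of all TSSs, and 40.3% and 32.3% of protein-coding TSSs in the same places.

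In all, 93 of 382 members tested were at least 2-fold lower at 12 h than at 3 h, 24.3%, against 29.3% of all TSSs, and 5 were at least 2-fold higher, against 4.04%. The median log2 ratio was −0.44 over these members and −0.56 over all TSSs tested, and 280 of the 382 lay below 0. Fewer than the 93 were called lower with 5 midpoints added in place of 1. Between 3 and 6 h 39 of 381 fell at least 2-fold, against 12.6% of all, and 10 rose, against 3.22%. Between 6 and 12 h 25 of 331 fell, against 8.66%, and 7 rose, against 1.98%. Of the members with at least 40 midpoints, 4933439C10Rik fell most, with 39, 18 and 5 midpoints at 3, 6 and 12 h and a log2 ratio of −2.85. It starts inside Zkscan17, a zinc finger gene, and was also the second highest member for HA-H3.3 at 6 h, with 118 midpoints. Next came 2410152P15Rik (36, 20 and 11 midpoints), 1700020I14Rik (31, 17 and 10) and Gm17327 inside the glycolytic gene Gpi1 (33, 10 and 13).

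Among members with at least 40 midpoints the highest ratios were smaller in size. Gm16954 rose from 15 midpoints at 3 h to 31 at 12 h, log2 0.89, and held 13 at 6 h. The next were 6430628N08Rik (15, 18 and 28), 2210411M09Rik (21, 24 and 34), 4930478K11Rik (20, 32 and 32) and Gm17278 (19, 29 and 30). At Gm17278 HA-H3.3 was near background, with 3 and 2 midpoints at 3 and 6 h, and anti-MacroH2A2 gave 2 in either cell type.

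In MEFs HA-Macro over all lincRNA promoters together stood close to its upstream level at every time, and the 33 CpG-rich members stood at 0.69 (0.44 to 0.94) at 3 h and 0.14 (−0.038 to 0.31) at 12 h. Enrichment was 0.07 (0.01 to 0.13) at 3 h, 0.03 (−0.03 to 0.09) at 6 h and −0.04 (−0.08 to 0.01) at 12 h, against 0.27, 0.22 and 0.08 at protein-coding promoters. Not divided by upstream, lincRNA promoters were not lower at the later times, with 0.510 against 0.509 ppm per kb at 6 h and 0.501 against 0.472 at 12 h. The change from 3 to 12 h was −0.10 (−0.17 to −0.03) at lincRNA and −0.19 (−0.20 to −0.18) at protein-coding promoters. From 6 h the lincRNA change was −0.064 (−0.14 to 0.0097), an interval that includes 0. From 3 h it was 0.079 (−0.048 to 0.21) at members 5 to 20 kb from a protein-coding TSS, −0.22 (−0.32 to −0.12) at 20 to 100 kb and −0.11 (−0.30 to 0.081) beyond, and −0.19 over members with none within 10 kb. The lincRNA change in ES cells minus that in MEFs was −0.40 (−0.50 to −0.31) from 3 h and −0.18 (−0.28 to −0.083) from 6 h. Of 203 members tested, 5 were at least 2-fold lower at 12 h, against 4.26% of all TSSs, and 10 at least 2-fold higher, 4.93% against 3.29%, and all 10 were CpG-poor, with an observed to expected ratio under 0.4, as were 123 of the 203 tested. Of CpG-poor TSSs tested 8.13% were higher among lincRNAs and 3.85% among protein-coding genes. The 10 became 0 with 5 midpoints added in place of 1 and 1 with at least 40 midpoints required. Midpoints were added before scaling and the 12 h library is the deeper one. The addition therefore lowers the ratio of any member with more midpoints at 12 h than at 3 h. The 5 lower became 0 with at least 40 midpoints required, and were more with a 1000 bp window or with distinct intervals only. From 3 to 6 h 0 of 101 were lower, against 3.93%, and 3 higher, against 3.21%, and from 6 to 12 h 7 of 201 were lower, against 4.76%, and 4 higher, against 3.73%. Among members with at least 40 midpoints the lowest was Gm16863, with 27, 14 and 26 midpoints at 3, 6 and 12 h (log2 −0.92 after scaling), then 4930461G14Rik, Gm16862, 4732419C18Rik and Gm12575. The highest of these was 4833407H14Rik, with 9, 13 and 42 (1.24), then Wbscr25 with 15, 20 and 57 (0.99), Gm17681, Gm17470 and Gm13645.

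**Figure D3:**
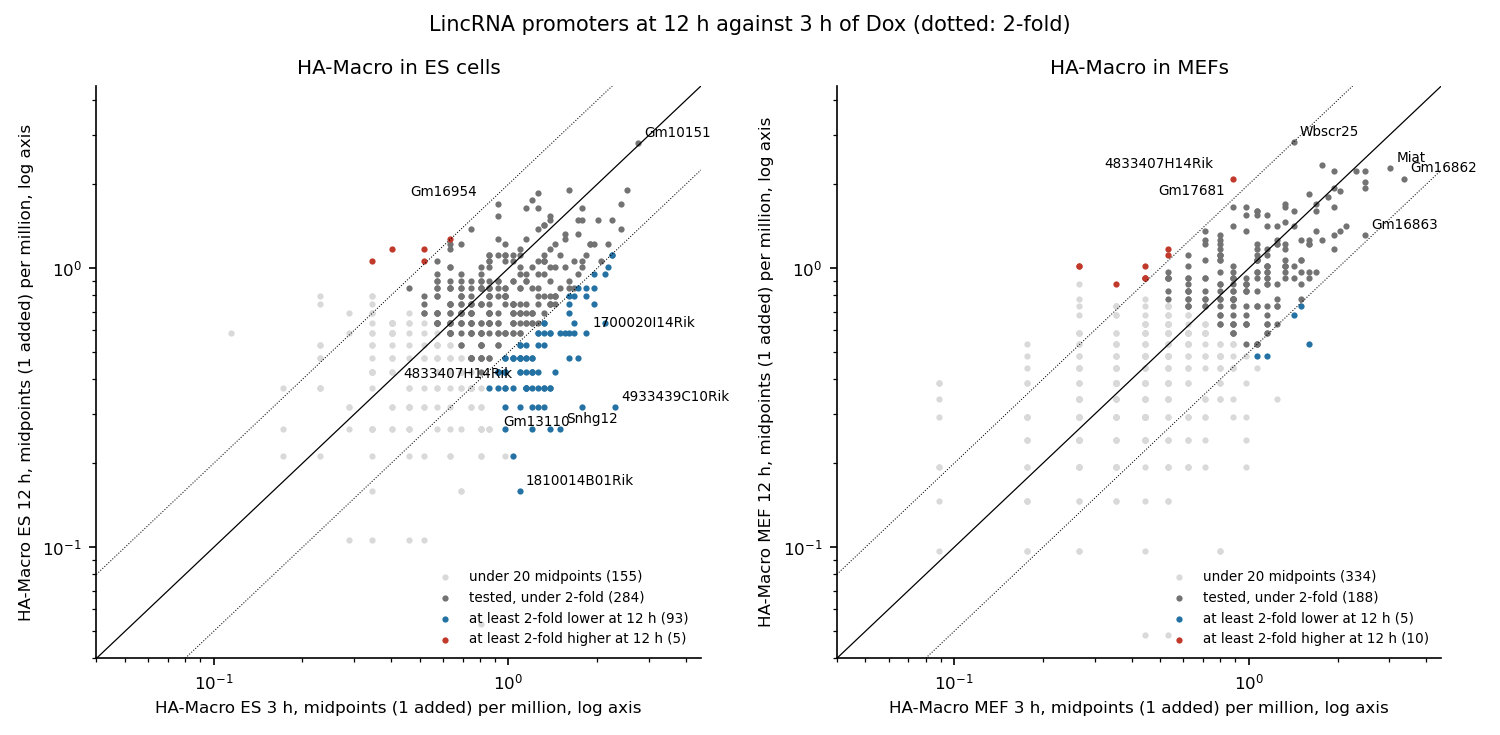
Scaled midpoints within 600 bp of each lincRNA TSS at 12 h against 3 h of Dox, 1 midpoint added, on log axes, in ES cells and in MEFs, with members at least 2-fold lower in blue, at least 2-fold higher in red and those under 20 midpoints in light grey. In ES cells 93 points lie at or below the lower dotted line and 5 above the upper one, and in MEFs 5 and 10.

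Set side by side at 3 h, 95 of 282 members were at least 2-fold lower in MEFs than in ES cells, against 44% of all TSSs, and 20 at least 2-fold higher, against 7.56%. At 12 h 30 of 316 were lower, against 16.1%, and 32 higher, against 9.01%. The pooled enrichment differed between MEFs and ES cells by −0.33 (−0.41 to −0.26) at 3 h and by 0.07 (0.01 to 0.13) at 12 h. Members at least 2-fold above their own upstream density numbered 6 of 134 without Dox, against 15.9% of all TSSs, 99 of 455 at 3 h in ES cells, against 34.2%, 70 of 456 at 6 h, against 20.4%, and 36 of 464 at 12 h, against 13.4%. In MEFs they were 29 of 190 at 3 h, against 19.8%, 29 of 188 at 6 h, against 20.2%, and 46 of 409 at 12 h, against 14.2%.

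LincRNA promoters richer in CpG held more HA-H3.3 at 6 h and more anti-MacroH2A2, while for HA-Macro at 12 h the intermediate class was not above the CpG-poor one, at −0.14 and −0.14 in ES cells and −0.12 and −0.0073 in MEFs. The 33 members with a ratio of at least 0.75 had an HA-H3.3 enrichment of 2.08 at 6 h, the 169 between 0.4 and 0.75 had 1.67 and the 335 below had 0.76, where protein-coding promoters of the same classes gave 1.98, 1.73 and 0.56. In the CpG-rich class the lincRNA and protein-coding values differed by 0.10 (−0.06 to 0.26), and in the CpG-poor class lincRNA promoters were higher by 0.20 (0.14 to 0.25) at 6 h but not at 3 h, where the difference was −0.020 (−0.11 to 0.067). Anti-MacroH2A2 in ES cells gave 1.50, 0.78 and 0.08 in the same order at lincRNA promoters and 1.51, 1.08 and 0.36 at protein-coding promoters. The CpG-rich classes differed by −0.01 (−0.23 to 0.21) and the CpG-poor by −0.28 (−0.37 to −0.20). Undivided, the CpG-poor classes were nearly level, at 0.551 and 0.557 ppm per kb. In MEFs the 33 CpG-rich lincRNA promoters stood at 0.84, above CpG-rich protein-coding promoters at 0.54 by 0.30 (0.10 to 0.49), and the CpG-poor at −0.03 against 0.23, or undivided at 0.449 against 0.466 ppm per kb. The 10 CpG-rich members with most midpoints held 57.2% of those of the 33, and the quartiles per promoter were 8, 10 and 14 midpoints against 7, 10 and 14 at CpG-rich protein-coding promoters.

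The fall of HA-Macro from 3 to 12 h in ES cells was seen in each CpG class. It was −0.76 (−0.99 to −0.53) in the CpG-rich, −0.80 (−0.91 to −0.69) in the intermediate and −0.31 (−0.39 to −0.23) in the CpG-poor lincRNA promoters, against −0.89, −0.78 and −0.04 at protein-coding promoters. From 6 to 12 h it was smaller, −0.40 (−0.63 to −0.17), −0.40 (−0.51 to −0.29) and −0.13 (−0.21 to −0.051), against −0.38, −0.35 and −0.0094. In MEFs the change from 3 to 12 h was −0.55 (−0.85 to −0.25) in the CpG-rich, −0.25 (−0.38 to −0.13) in the intermediate and 0.027 (−0.068 to 0.12) in the CpG-poor class, and from 6 h −0.11 (−0.41 to 0.19), −0.15 (−0.28 to −0.024) and −0.013 (−0.11 to 0.083). At 3 h in ES cells the CpG-poor lincRNA and protein-coding promoters stood at 0.18 and 0.17, and at 12 h at −0.14 and 0.12. Undivided, these lincRNA promoters were the higher, with 0.637 against 0.446 ppm per kb at 3 h and 0.498 against 0.475 at 12 h. Upstream they held 0.564 against 0.398 at 3 h and 0.547 against 0.437 at 12 h. By single promoters, 49 of 226 CpG-poor lincRNA promoters, 21.7%, were at least 2-fold lower at 12 h, where 8.66% of CpG-poor protein-coding promoters were. In the intermediate class 34 of 125 fell, 27.2% against 34.2%, and in the CpG-rich class 10 of 31, 32.3% against 49.2%.

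**Figure D4:**
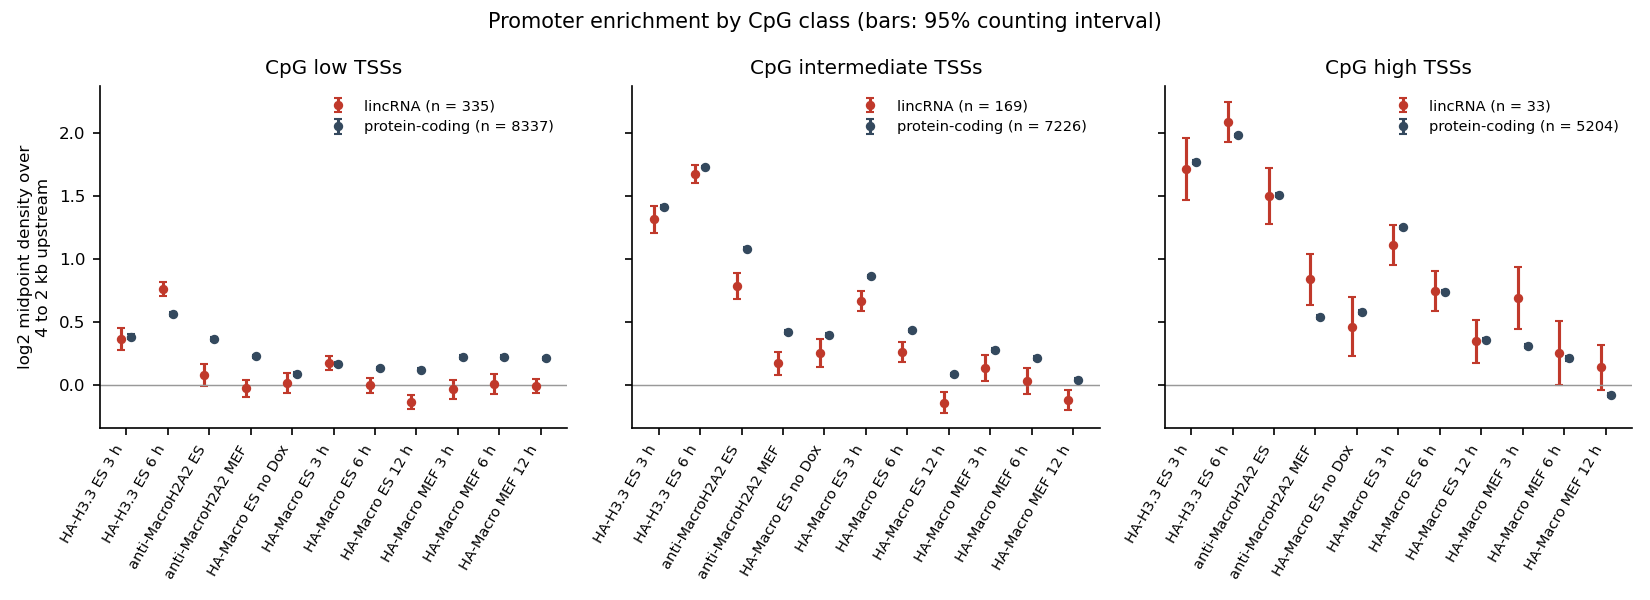
Log2 enrichment in each library by CpG class (observed to expected ratio under 0.4, 0.4 to 0.75, and 0.75 or more) for lincRNA and protein-coding TSSs, with 95% counting intervals as bars. The CpG-rich class lies highest among lincRNA promoters, at 2.08 for HA-H3.3 at 6 h, and the CpG-poor class lies at 0.76.

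MacroH2A2 was also compared between members with more and less H3.3. The 221 members at least 2-fold enriched for HA-H3.3 at 6 h had an anti-MacroH2A2 enrichment of 0.84 (0.75 to 0.93) in ES cells, and the 159 tested members below that line −0.03 (−0.14 to 0.08). HA-Macro at 3 h in ES cells stood at 0.76 (0.69 to 0.82) and 0.03 (−0.04 to 0.11), at 6 h at 0.30 (0.24 to 0.37) and −0.14 (−0.22 to −0.064), and at 12 h at −0.12 and −0.25. The 157 members with too few HA-H3.3 midpoints to be tested had a pooled HA-H3.3 enrichment of 0.57 at 6 h. This lies between the 2.23 and −0.05 of the other groups, which were split on this library. These 157 also lay between them with 0.29 (0.15 to 0.43) for anti-MacroH2A2 in ES cells and 0.28 and 0.24 for HA-Macro at 3 and 6 h, but above both with 0.12 at 12 h. CpG content moved with this split, with a median ratio of 0.496 in the first group and 0.272 in the second, and its part in it was not tested. Of 123 members tested for both, 76 were enriched at least 2-fold for HA-H3.3 at 6 h and 55 for anti-MacroH2A2 in ES cells, with 47 shared, 61.8% of the first and 85.5% of the second, where protein-coding TSSs shared 69.1% and 82.3%. For HA-Macro at 3 h, 73 were shared among 357 tested, 35.8% of 204 enriched for HA-H3.3 and 90.1% of 81 enriched for HA-Macro, against 56.5% and 87.9% at protein-coding TSSs. Across the 537 members Spearman's rho between midpoints of HA-H3.3 at 6 h and anti-MacroH2A2 in ES cells was 0.36, against 0.57 across protein-coding TSSs, and points share mapping and base composition. Members with GGGCGG in the 300 bases, 141 of those kept, had an HA-H3.3 enrichment of 1.74 at 6 h and the 396 without it 0.93, and this motif holds a CpG itself.

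Position relative to protein-coding genes was compared as well. HA-H3.3 at 6 h gave 1.34 at members outside protein-coding gene bodies and 0.95 at those inside, a difference of 0.39 (0.31 to 0.47), and anti-MacroH2A2 in ES cells gave 0.48 and 0.41, a difference of 0.06 (−0.06 to 0.19). In MEFs the order was the reverse, with a difference of −0.13 (−0.24 to −0.020) for anti-MacroH2A2 and of −0.093 (−0.22 to 0.033), −0.16 (−0.29 to −0.037) and −0.21 (−0.31 to −0.12) for HA-Macro at 3, 6 and 12 h. By distance to the nearest protein-coding TSS, HA-H3.3 at 6 h gave 1.08 at 5 to 20 kb, 1.27 at 20 to 100 kb and 1.18 beyond. Anti-MacroH2A2 gave 0.23 (0.14 to 0.32), 0.04 (−0.04 to 0.11) and −0.0012 (−0.14 to 0.14) over the same classes in MEFs and 0.44, 0.48 and 0.39 in ES cells, and HA-Macro in MEFs gave 0.041, 0.074 and 0.091 at 3 h, 0.096, −0.025 and 0.060 at 6 h and 0.12, −0.15 and −0.018 at 12 h. The 667 lincRNA TSSs within 5 kb of a protein-coding TSS stood at 1.54 for HA-H3.3 at 6 h and at 0.94 for anti-MacroH2A2 in ES cells, against 1.57 and 0.99 at all protein-coding promoters. For HA-Macro in ES cells at 3 h they stood at 0.55, between the members at 0.40 and protein-coding promoters at 0.80. Their change from 3 to 12 h, −0.33 (−0.38 to −0.27), was smaller in size than the −0.50 and −0.63 of these groups. From 6 h it was −0.25 (−0.30 to −0.19), against −0.24 and −0.26.

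Of 96 lincRNA symbols in 6 lists of known genes, 42 were annotated, 23 typed as lincRNA and 16 were members. For HA-H3.3 at 6 h 10 of 14 tested were at least 2-fold above upstream, against 66.3% of all TSSs, and for HA-Macro in ES cells 6 of 13 at 3 h, against 34.2%, and 0 of 15 at 12 h, against 13.4%. From 3 to 12 h in ES cells 5 of 13 tested were at least 2-fold lower and 0 higher, against 29.3% and 4.04% of all TSSs, with a median log2 of −0.85 over the 13, against −0.56 over all TSSs tested. In MEFs 0 of 7 tested passed the line in either direction, against 4.26% lower and 3.29% higher of all TSSs, with a median of −0.40 over the 7, against −0.08 over all TSSs tested.

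Midpoints of the single members that follow are not scaled, and library sizes differ. HA-Macro in MEFs came from 11271295, 10896851 and 20541627 intervals at 3, 6 and 12 h. HA-H3.3 came from 6488112 at 3 h and 10722793 at 6 h, and anti-MacroH2A2 from 8545703 in ES cells and 14899508 in MEFs. The snoRNA host genes carry small nucleolar RNAs in their introns. Snhg5 held 14 and 56 midpoints for HA-H3.3 at 3 and 6 h, 8 and 9 for anti-MacroH2A2 in ES cells and MEFs, 3 for HA-Macro without Dox, 19, 8 and 6 in ES cells at 3, 6 and 12 h, and 5, 0 and 0 in MEFs. Snhg12 held 4 and 13, 6 and 8, 9, then 25, 13 and 4, and 4, 2 and 7 in the same order. Snhg7 held 20, 12 and 6 for HA-Macro in ES cells, log2 −1.70 from 3 to 12 h, and Snhg4 held 9, 14 and 9. Snhg5, Snhg7 and Snhg12 were each at least 2-fold lower at 12 h than at 3 h in ES cells after scaling, and Snhg4 held fewer than 20 midpoints in the 2 libraries together.

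At imprinted loci, Nespas held 12 and 64 midpoints for HA-H3.3 and 24, 15 and 14 for HA-Macro in ES cells. Airn, which silences Igf2r on the paternal chromosome and starts inside it, held 8 and 24 for HA-H3.3, 4 and 8 for anti-MacroH2A2, and 15, 10 and 10 for HA-Macro. Meg3, a maternally expressed RNA, held 1 and 14 for HA-H3.3, 5 and 7 for anti-MacroH2A2 (0.585 and 0.470 ppm), and 10, 2 and 11 for HA-Macro in ES cells. Mirg, a microRNA host in the same cluster, held 2 and 12, 9 and 12, and 6, 10 and 11. Neither Meg3 nor Mirg was lower at 12 h than at 3 h in midpoints. Dleu2, which hosts microRNAs of the miR-15 family, held 11 and 34 for HA-H3.3 and 21, 12 and 13 for HA-Macro.

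In the list of nuclear or broadly expressed lincRNAs, Pvt1, which lies next to Myc, held 9 and 30 midpoints for HA-H3.3, 7 and 9 for anti-MacroH2A2, 35, 21 and 19 for HA-Macro in ES cells and 11, 13 and 10 in MEFs. Miat held 11 and 26 for HA-H3.3, 29, 32 and 27 for HA-Macro in ES cells and 33, 27 and 46 in MEFs. Scaled to library size, the MEF values of Miat fell, at 2.93, 2.48 and 2.24 ppm. 1700020I14Rik held 13 and 28 for HA-H3.3, 13 and 7 for anti-MacroH2A2, and 31, 17 and 10 for HA-Macro in ES cells. Miat thus kept to 27 to 32 midpoints over the ES time course while 1700020I14Rik fell, with a log2 of −1.65 (−2.94 to −0.68 without the added midpoint).

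At developmental loci, Sox2ot, whose gene holds Sox2 in an intron, held 4 and 5 midpoints for HA-H3.3 and 10, 11 and 10 for HA-Macro in ES cells. Rmst, an RNA of neural development, held 1 and 1 for HA-H3.3, 2 and 10 for anti-MacroH2A2, and 3, 9 and 6 for HA-Macro. Both are CpG-poor, with observed to expected ratios of 0.217 and 0.176. Of the ES cell list, Gm13110 held 5 and 40 for HA-H3.3, 2 and 8 for anti-MacroH2A2, 30, 21 and 5 for HA-Macro in ES cells and 9, 3 and 10 in MEFs (0.799, 0.275 and 0.487 ppm), and 2410003L11Rik held 6 and 26, 5 and 13, 14, 9 and 15, and 8, 7 and 15.

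**Figure D5:**
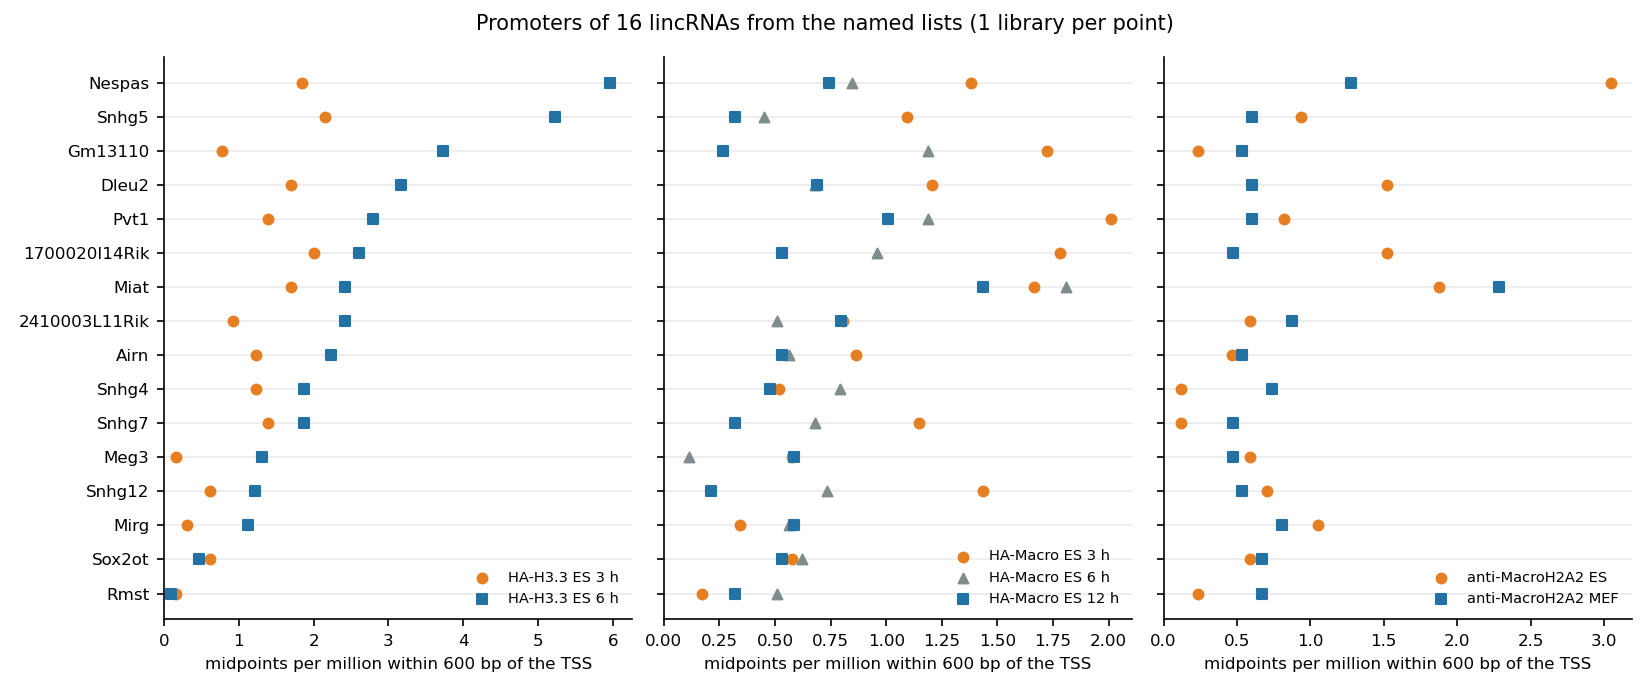
Midpoints within 600 bp of the TSS for the 16 members found in the lists of known lincRNAs, in ppm by library. Snhg5 and Nespas reach 5.22 and 5.97 ppm with HA-H3.3 at 6 h, and Rmst stays at 0.0933.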

How the data were processed

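ChIP-Seq of 11 libraries from mouse ES cells and MEFs was analysed, with groups taken from the sample labels. The authors collapsed identical reads with their occurrence numbers and aligned them to mm9 by bowtie (version 1.0 in the submitters' processing notes) at up to 1 mismatch. Where a read matched several places they took 1 at random, and reads were lengthened at the 3′ end. The deposited files hold only the chromosome, first and last base of each interval, without strand, counts or scores. The methods give an extension to 150 bp, whereas the files of HA-H3.3 and anti-MacroH2A2 hold 400 bp. In the HA-Macro libraries 3.27% to 6% of intervals are repeats, and 0.463% to 0.693% in the others.

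Interval midpoints were counted within 600 bp of each gene TSS and from 4 to 2 kb upstream with Python 3.11.15 and numpy 2.4.6, and the counting code was tested on simulated data. TSSs in the 1% of 100 kb tiles with the most anti-HA midpoints without Dox were left out. Libraries were scaled to their intervals on chromosomes 1 to 19, X and Y. Ratios between libraries for single members carry 1 midpoint added before scaling, and their intervals none. A member was called at 2-fold among those with at least 20 midpoints in the pair compared. Ratio intervals are exact binomial (scipy 1.17.1), and those of differences use the Poisson variance of the logs. Pooled sums weight members by their midpoints. No input library is used here, and no spread between replicates could be had.

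Members and lists were chosen with earlier results of these data known. Named members are those in the 6 lists, the 5 highest over upstream in 3 libraries, the 5 lowest and highest in 3 comparisons among those with at least 40 midpoints, and the 5 with most midpoints without Dox. Any other member named, such as the highest in a library, was chosen after its values were seen. Promoter sequences were read from the mm9 genome. 1 of the lowest 5 members in ES cells and 1 promoter sequence are not reported here.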

Additional observations from a re-analysis of the deposited data

Results flagged for a closer look

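4833407H14Rik, a gene on chromosome 19 whose nearest protein-coding TSS, that of Dusp5, is 68.5 kb away, moved in opposite directions in the HA-Macro time courses. In ES cells it held 20, 10 and 7 midpoints at 3, 6 and 12 h, log2 −1.51 from 3 to 12 h (−3.11 to −0.33 without the added midpoint). In MEFs it held 9, 13 and 42, log2 1.24 (0.30 to 2.58). It was also high for HA-H3.3, with 18 and 71 midpoints at 3 and 6 h, and anti-MacroH2A2 gave 2 midpoints (ES cells) and 14 (MEFs). The difference between the cell types was not tested, since each time point is 1 library. Of 173 members with at least 20 midpoints in both comparisons, 46 were lower in ES cells and higher in MEFs, 31 the reverse, 67 lower in both and 29 higher in both, and 1, this gene, had both intervals away from 0 in opposite directions, 0.578%. Of 5900 protein-coding TSSs tested likewise, 24.6% were lower in ES cells and higher in MEFs, 18.4% the reverse, 40.6% lower in both and 16.4% higher in both, close to the 26.6%, 17.9%, 38.7% and 16.8% of members, and 9, or 0.153%, had both intervals away from 0 in opposite directions.

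The 24 lincRNA promoters on the X chromosome, which the comparisons above leave out, were enriched for HA-H3.3 at 1.29 (log2) at 3 h and 1.52 at 6 h, above the 0.11 of the anti-HA HA-Macro library without Dox. They held 122 and 291 midpoints in the window. Anti-MacroH2A2 gave 0.85 (ES cells) and 0.14 (MEFs). The autosomal lincRNA promoters stood at 0.80 and 1.19 for HA-H3.3 in the same libraries. No HA-H3.3 library without Dox is among the 11, and the HA-Macro one has 150 bp intervals where those of HA-H3.3 have 400 bp.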

How the results depend on the processing

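The lincRNA minus protein-coding difference kept its sign in H3.3 and anti-MacroH2A2 libraries under every alternative run. For HA-H3.3 at 6 h (−0.38) it was −0.30 with a 300 bp window, −0.47 divided by both flanks, −0.30 as a median over TSSs, −0.23 without members inside gene bodies, −0.44 without the 10 members with most midpoints and −0.15 undivided. For anti-MacroH2A2 in ES cells (−0.54) it was −0.46 with 1000 bp, −0.63 without the 10 and −0.39 undivided, and in MEFs (−0.28) −0.19, −0.37 and −0.14. Against the isolated protein-coding TSSs it was −0.42, −0.56 and −0.28 in these libraries. Undivided, it reversed for HA-Macro in MEFs at 6 h (0.0040) and 12 h (0.087), since upstream levels are higher at lincRNA TSSs. With no TSS left out, the HA-Macro differences went from −0.21 to −1.06 without Dox, from −0.40, −0.29 and −0.28 to −0.84, −0.94 and −1.06 at 3, 6 and 12 h in ES cells, and from −0.20, −0.19 and −0.11 to −0.89, −0.84 and −0.68 in MEFs. Without Dox the 11 lincRNA TSSs put back stood at 0.27 and the 537 kept at 0.12. There the shift therefore lies on the protein-coding side, where 651 TSSs were put back. Leaving out the 10 and not dividing were added after the data were seen.

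The ES change from 3 to 12 h (−0.50) was −0.41 divided by both flanks, −0.44 as a median, −0.70 without members inside gene bodies and −0.24 from 6 h. From 6 h, added after the data were seen, its difference from the protein-coding change (0.13) was 0.013 and that from the MEF change (−0.40) −0.18. The MEF change (−0.10) was −0.19 with no protein-coding TSS within 10 kb. The 93 members lower in ES cells became 16 of 66 with at least 40 midpoints, 54 with 5 midpoints added and 25 from 6 h, and the 5 higher became 8 with 1000 bp, 0 with at least 40, 2 with 5 added and 3 with the 10 kb distance. In MEFs the 5 lower became 9 with distinct intervals only, 13 with 1000 bp and 0 with at least 40 midpoints, and the 10 higher 1 with at least 40, 0 with 5 added and 4 from 6 h. For B230344G16Rik the anti-MacroH2A2 ratio reversed to 0.20 with a 300 bp window. Where no construction is named, the cause was not tested.

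A median of 13 midpoints per member at 3 h in ES cells and 6 in MEFs leaves single promoters with wide counting intervals, and fewer members could be tested in MEFs. No paired analysis was possible because each condition has 1 library and no result comes from a test.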

Other observations

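The 11 members in the tiles left out held a median of 9 anti-HA midpoints without Dox and up to 76. Speer7-ps1 on chromosome 5 held 76, 77, 50 and 57 midpoints for HA-Macro in ES cells without Dox and at 3, 6 and 12 h. On chromosome 8, Gm10060 held 70, 154, 61 and 86, Gm17279 held 43, 115, 67 and 37, and AC152164.1 held 36, 75, 38 and 41. With HA-H3.3 or anti-MacroH2A2 these 3 held 0 to 6 midpoints. Outside those tiles Gm17605 held the most without Dox, 20.

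A stretch 1.6 to 2.5 kb downstream of the TSS of Gm17447, a 2-exon lincRNA gene inside Arsb on the minus strand (mm9, chromosome 13, 94710945 to 94712970), gathered anti-HA midpoints in the HA-Macro libraries. It held 42 midpoints without Dox and 161, 238 and 521 at 3, 6 and 12 h in ES cells, or 3.35, 9.25, 13.4 and 27.7 ppm (midpoints per 1000000 intervals). In MEFs it held 47, 68 and 116, or 4.17, 6.24 and 5.65 ppm. HA-H3.3 gave 5 and 4 midpoints there and anti-MacroH2A2 gave 8 (ES cells) and 17 (MEFs). This stretch gave 383 of the 955 midpoints in the bin 1750 bp downstream of all lincRNA TSSs at 12 h, and without Gm17447 the ratio of that bin to the upstream mean was 1.03 in place of 1.72. With intervals of 150 bp and no strand, a 100 bp bin holds at most 100 distinct intervals. Most of the 383 were thus repeats, and distinct intervals were not counted for this stretch. The gene was chosen after its values were seen.

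TSSs of other noncoding types with no protein-coding TSS within 5 kb stood lower than lincRNA promoters for HA-H3.3 at 6 h. The 1828 of processed transcripts gave a log2 enrichment of 0.57 (0.54 to 0.59) and the 3500 of pseudogenes 0.05 (0.02 to 0.08), against 1.19 at lincRNA promoters. For anti-MacroH2A2 in ES cells both gave 0.18, against 0.45. For HA-Macro in ES cells they stood lower at 3 h, at 0.13 and 0.27 against 0.40, and on either side at 6 h, at 0.053 and 0.22 against 0.14. For HA-Macro at 12 h they stood higher, at −0.0030 and 0.28 against −0.10 in ES cells and 0.060 and 0.21 against −0.036 in MEFs. At pseudogenes in ES cells 1 TSS held 2953 of the 37845 midpoints and the 10 highest 12.1%, and their part in the 0.28 was not tested. For anti-MacroH2A2 in MEFs they gave 0.025 and 0.11 against 0.10.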
